A study of Homo sapiens with 4 samples.

Results

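CELF2, its antisense RNA CELF2-AS1 and 6 other genes of splicing regulators were followed in RPMI 8226 cells, a human multiple myeloma line (spelled RPMI82266 in the sample labels), given an antisense oligonucleotide against CELF2. The 8 genes were chosen by name: CELF2, CELF2-AS1, CELF1, MBNL1, MBNL2, MBNL3, RBFOX2 and QKI. Each matched 1 row among the 78932 Ensembl genes of the count table, and all 8 passed the filter on low counts. CELF2_LNA_ASO cells were transfected with a locked nucleic acid (LNA) oligonucleotide against CELF2 at 5 nM, and Control_LNA_ASO cells with a control LNA oligonucleotide whose dose the labels do not give. Both groups had 2 libraries taken at 72 hours. An LNA oligonucleotide is a short synthetic strand with locked sugars that pairs tightly with a chosen RNA and, depending on its design, leads to its cleavage or blocks its processing. The labels do not say whether the number of a library marks a separate culture or a different oligonucleotide. The p-values therefore reflect the spread among these 4 libraries, and that spread may be technical.

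CELF and MBNL proteins bind pre-mRNA beside alternative exons and often push the same exon in opposite directions. CELF proteins bind GU-rich RNA and also act in the cytoplasm, where they affect the decay and translation of mRNAs. MBNL proteins bind YGCY motifs, and their loss to expanded repeats causes the splicing changes of myotonic dystrophy, in which CELF1 is raised. RBFOX2 binds UGCAUG, and QKI binds ACUAAY and related sites. Gene counts give the amount of RNA from a gene and not which exons it holds.

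Total counts were 26061900 and 23599190 in the CELF2_LNA_ASO libraries and 29161298 and 24493148 in the Control_LNA_ASO libraries. Levels are given as CPM, the count scaled to a library of fixed size after TMM normalization. Of 10 plasma cell markers, 9 were tested, and the list summed to 3860.65 and 3310.60 CPM in the CELF2_LNA_ASO libraries and to 3167.02 and 3379.48 CPM in the Control_LNA_ASO libraries. Over all genes tested with edgeR, 27.5% rose and 27.9% fell at an adjusted p of 0.05. Of these 9 markers, 3 rose (CD38, IRF4 and SLAMF7), 4 fell (SDC1, TNFRSF17, PRDM1 and MZB1) and 2 did not pass, with a median log2 fold change of 0.02, and CD27 was near 0 in all 4 libraries. The 11 markers of other cell types summed to 51.3 and 44.4 CPM with the CELF2 oligonucleotide and to 74.3 and 76.2 CPM with the control one, most of it EPCAM, while CD3D, LYZ and HBB had 0 to 3 counts per library. Of the 11 markers, 7 were tested, 1 rose, 3 fell and 3 did not pass, with a median log2 fold change of 0.19. The part of this difference in the results was not tested.

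The background of change was wide. Of 19511 genes tested with edgeR's quasi-likelihood test, 55.5% passed a Benjamini-Hochberg adjusted p of 0.05, with 27.5% higher and 27.9% lower in the CELF2_LNA_ASO libraries. The groups did not overlap for 79.6% of tested genes. Against this, 3 of the 8 genes rose, 3 fell and 2 did not pass, and the groups did not overlap for any of the 8, with 4 above the controls (background 41.2%) and 4 below (background 38.4%). With 8 genes and so wide a background these counts are no result about the genes as a set, and each gene is described by its own values.

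**Figure D1:**
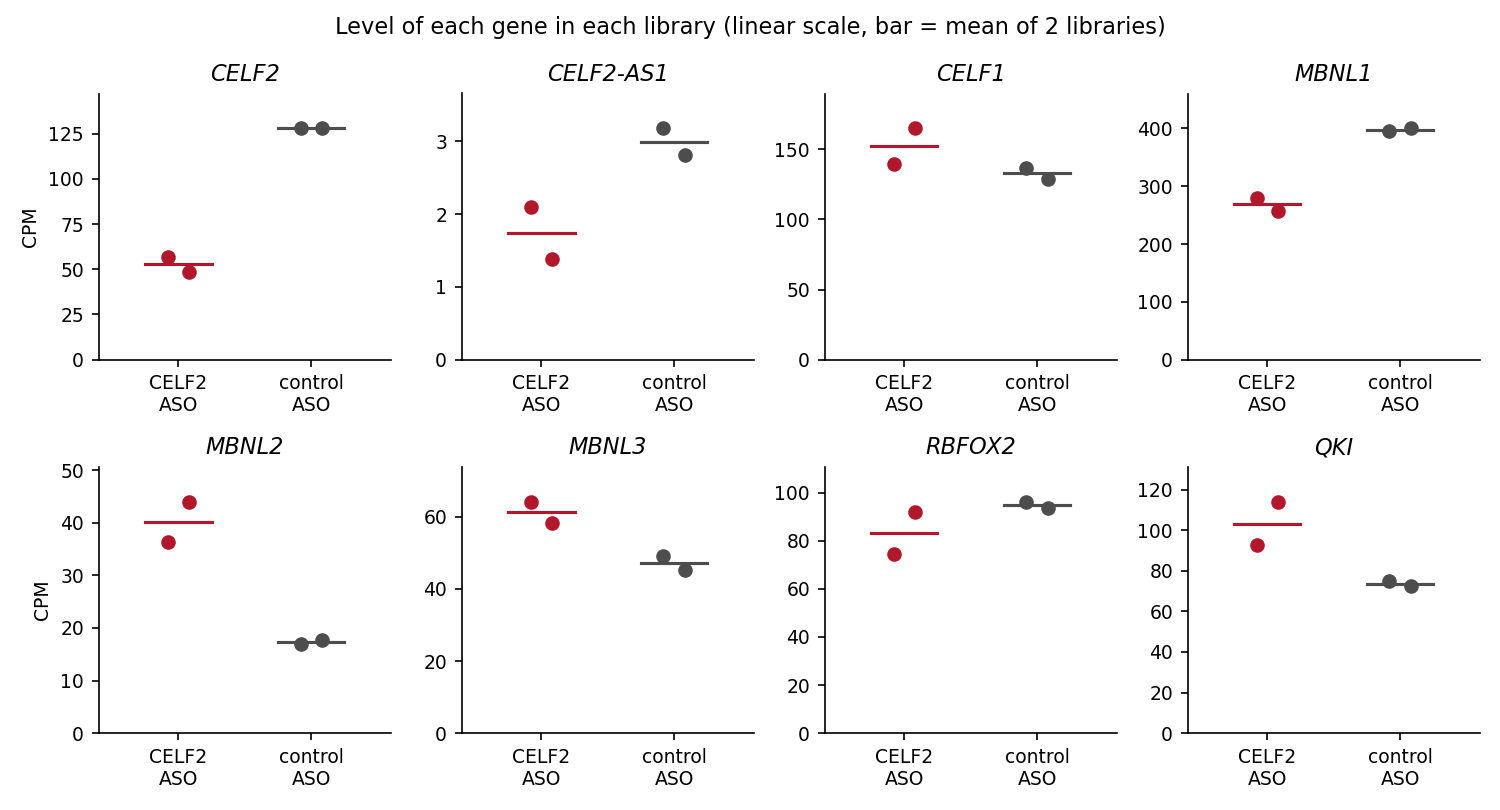
Level of each of the 8 genes in CPM (y axis, linear from 0, own scale per gene) in the 2 CELF2_LNA_ASO libraries and the 2 Control_LNA_ASO libraries, with a bar at each mean. The groups are apart for every gene, by the widest relative margins for CELF2, at 56.6 and 48.8 CPM against 128 and 128 CPM, and for MBNL2, at 36.2 and 44.0 CPM against 16.9 and 17.6 CPM.

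CELF2, the target, was lower but not lost. It lies on chromosome 10 (GRCh38, 10798397 to 11336675, plus strand) as ENSG00000048740, a protein-coding gene that spans 538.3 kb and has 17 transcripts in GENCODE 29. It had 1569 and 1165 counts in the CELF2_LNA_ASO libraries, which is 56.6 and 48.8 CPM, and 3583 and 3001 counts in the Control_LNA_ASO libraries, which is 128 CPM in each. Both CELF2_LNA_ASO libraries were far below both control libraries, which were almost equal. The CELF2_LNA_ASO libraries kept 44.2% and 38.1% of the control mean. The mean was 52.7 ± 5.53 CPM in CELF2_LNA_ASO cells and 128 ± 0.0805 CPM in Control_LNA_ASO cells (SD, n = 2 each), or 2.43-fold lower. Its log2 fold change was -1.28 (edgeR adjusted p = 2.88e-05), with an SE of 0.09. In bulk RNA, fewer cells holding a transcript and less of it per cell cannot be told apart.

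The fall of CELF2 was large next to its replicate spread, but other genes fell by as much or more. On a ranking of log2 fold changes from lowest to highest, CELF2 stood at the 7% mark of the 19511 tested genes. The fold change stayed between -1.51 and -1.16 over all the settings tried.

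**Figure D2:**
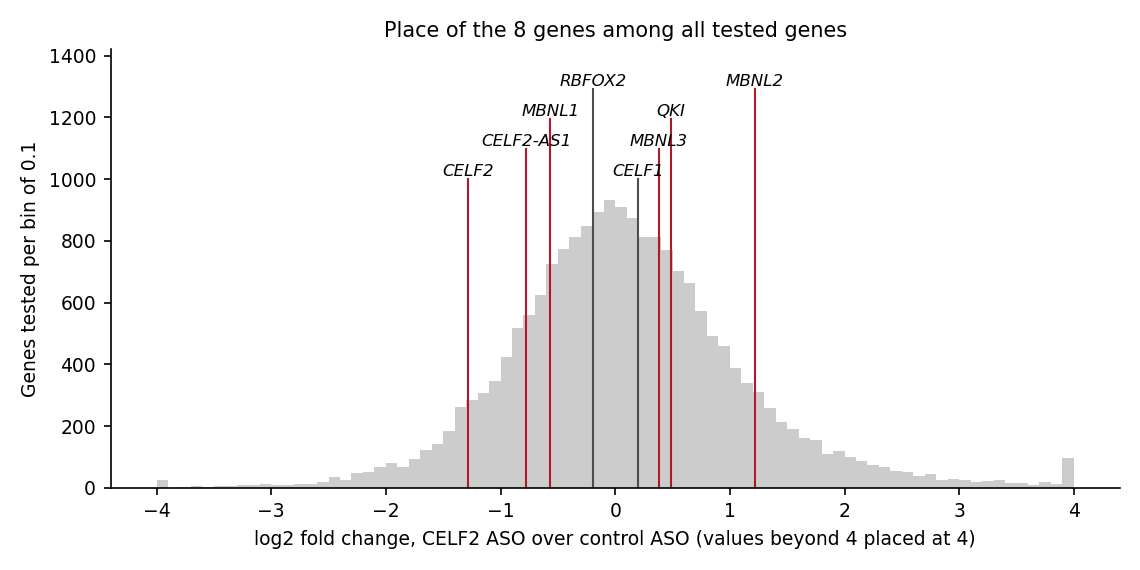
Number of tested genes per bin of log2 fold change, CELF2_LNA_ASO over Control_LNA_ASO (x axis, values beyond 4 placed at 4), with a line for each of the 8 genes, red where the adjusted p was below 0.05 and dark grey where it was not. CELF2 at -1.28 and MBNL2 at 1.22 lie on the shoulders of the distribution and the other 6 genes nearer its centre.

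CELF2-AS1 fell with CELF2, though on few reads. It is annotated as an antisense RNA gene on the minus strand of chromosome 10 (GRCh38, 11316834 to 11319884, ENSG00000181800). In GENCODE 29 it overlaps no exon of CELF2: it sits inside an intron, 2044 bases from the nearest CELF2 exon on its left and 972 bases from the one on its right. Its counts were 58 and 33 in the CELF2_LNA_ASO libraries and 89 and 66 in the Control_LNA_ASO libraries, or 2.09 and 1.38 CPM against 3.18 and 2.81 CPM. Each CELF2_LNA_ASO library was below each control library, and the CELF2_LNA_ASO pair differed more between themselves than the control pair did.

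CELF2-AS1 fell by 0.78 on the log2 scale (SE 0.25, edgeR adjusted p = 0.0309). The call was lost with library totals alone (edgeR adjusted p = 0.0706), with DESeq2 (adjusted p = 0.095), and without CELF2_LNA_ASO replicate 2 (edgeR adjusted p = 0.0605) or Control_LNA_ASO replicate 1 (edgeR adjusted p = 0.0858). For every 100 CELF2 counts there were 3.70 and 2.83 counts of CELF2-AS1 in the CELF2_LNA_ASO libraries and 2.48 and 2.20 in the Control_LNA_ASO libraries. The labels name both poly(A) selection and removal of ribosomal RNA, and the strand setting of the counting is not given in the sources used here, so antisense reads cannot be told apart from reads of the CELF2 intron around them. Counting CELF2 and CELF2-AS1 as 1 gene gave a log2 fold change of -1.27. CELF2-AS1 has few counts beside CELF2, so this value had to stay near that of CELF2 and cannot settle the origin of the reads.

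Other annotated noncoding genes in and near CELF2 had few counts. CELF2-AS2, a further antisense gene, had 0 and 0 counts in the CELF2_LNA_ASO libraries and 0 and 1 in the Control_LNA_ASO libraries. CELF2-DT, a noncoding gene upstream of CELF2, had 1 and 1 counts against 1 and 0. The unnamed antisense gene ENSG00000230322 had 22 and 15 counts against 15 and 8, and its log2 fold change of 0.68 did not pass (edgeR adjusted p = 0.167). The antisense gene ENSG00000228302, further downstream, had 25 and 36 counts against 48 and 30, and its groups overlapped (log2 fold change -0.34, edgeR adjusted p = 0.403).

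The genes around CELF2 differed in direction. Only rows with a position in GENCODE 29 could be placed, which are 57356 of the 78932 Ensembl genes. Within 1 Mb on either side there were 32 other such rows, of which 8 were tested. Of the tested rows, 1 rose, 2 fell and 5 did not pass, against 27.5% higher and 27.9% lower over all tested genes. CDC123, a factor in assembly of the translation initiation complex eIF2, fell by 1.39 on the log2 scale, with 59.1 and 50.6 CPM in the CELF2_LNA_ASO libraries against 142 and 145 CPM in the Control_LNA_ASO libraries (edgeR adjusted p = 2.25e-05). NUDT5, an ADP-sugar hydrolase, fell by 0.42 (edgeR adjusted p = 0.00311), and DHTKD1, a mitochondrial dehydrogenase subunit, rose by 0.80 (edgeR adjusted p = 0.00011). The nearest protein-coding gene downstream that was tested, USP6NL, had 9.74 and 10.2 CPM against 9.25 and 9.42 CPM, a difference of 0.09 on the log2 scale that did not pass (edgeR adjusted p = 0.544).

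CELF1, the closest paralog of CELF2, did not clearly change. It is a protein-coding gene on the minus strand of chromosome 11 (GRCh38, 47465933 to 47565569, ENSG00000149187). It had 139.5 and 165 CPM in the CELF2_LNA_ASO libraries and 137 and 129 CPM in the Control_LNA_ASO libraries. The groups did not overlap, but the first CELF2_LNA_ASO library was close to the control pair and the other was well above it. The log2 fold change was 0.20, with a 95% interval of -0.03 to 0.42 (edgeR adjusted p = 0.117). Scaling by library totals alone brought it past the threshold (edgeR adjusted p = 0.0203), as did leaving out CELF2_LNA_ASO replicate 1 (edgeR adjusted p = 4.01e-09), a fit that has only the control pair to estimate the spread. With a correction for GC content and length, chosen after seeing the data, it was 0.04. Exons of NDUFS3 and PTPMT1 on the opposite strand overlap 2.24% of the exon bases of CELF1.

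The paralogs shared only short stretches of sequence. Over all GENCODE 29 transcripts of each gene, CELF2 and CELF1 shared no run of 31 bases, and neither did any pair of the MBNL genes, while the reads were 150 bases long per the labels. The longest identical stretch of CELF2 and CELF1 was 23 bases, and that of MBNL2 and MBNL1 was 20 bases. All of these stretches are coding. They are shown with 15 bases on each side, from the GENCODE 29 transcripts (GRCh38) and 5′ to 3′ on the strand of the gene, with the shared stretch in capitals, to show how soon the paralogs part. Each window joins adjacent exons, so the genomic span given is longer than the sequence.
CELF2 (chr10:11321359-11325860, plus): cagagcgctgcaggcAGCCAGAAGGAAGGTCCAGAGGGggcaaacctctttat
CELF1 (chr11:47473207-47475363, minus): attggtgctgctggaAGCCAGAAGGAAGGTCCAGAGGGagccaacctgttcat
MBNL2 (chr13:97357629-97366465, plus): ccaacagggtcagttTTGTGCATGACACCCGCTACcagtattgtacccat
MBNL1 (chr3:152447767-152456273, plus): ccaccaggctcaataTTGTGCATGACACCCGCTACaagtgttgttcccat

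As CELF2 fell and CELF1 did not clearly change, the balance between the CELF paralogs shifted towards CELF1. The shares and the sum largely restate the fall of CELF2. Per kilobase of exon, CELF2 made up 27.9% and 22.0% of the CELF1 and CELF2 total in the CELF2_LNA_ASO libraries and 47.1% and 48.6% in the Control_LNA_ASO libraries. The summed level was 18.5 and 20.2 CPM per kilobase in the CELF2_LNA_ASO libraries and 24.8 and 24.0 CPM per kilobase in the Control_LNA_ASO libraries, so the sum was lower in both CELF2_LNA_ASO libraries. The other CELF paralogs, CELF3, CELF4, CELF5 and CELF6, had 0 to 13 counts in any library and were not tested. An exact permutation test of 2 libraries against 2 cannot reach the threshold, and the shares were not tested.

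The MBNL genes moved in opposite directions. MBNL1 is the most abundant member of the family in these cells and lies on chromosome 3 (GRCh38, 152243828 to 152465780, plus strand, ENSG00000152601). It had 280.3 and 257 CPM in the CELF2_LNA_ASO libraries and 395 and 400.5 CPM in the Control_LNA_ASO libraries, with a wide gap between the groups. The mean was 269 ± 16.3 CPM in CELF2_LNA_ASO cells and 398 ± 3.93 CPM in Control_LNA_ASO cells (SD, n = 2 each). MBNL1 fell by 0.57 on the log2 scale (SE 0.08, edgeR adjusted p = 0.000609). In GENCODE 29, 15.6% of the exon bases of MBNL1 overlap exons on the opposite strand, mainly those of MBNL1-AS1. The strand setting of the counting is not given. How reads from these bases were assigned between MBNL1 and the antisense gene MBNL1-AS1 is therefore unknown. That antisense gene had 26 and 25 counts in the CELF2_LNA_ASO libraries against 15 and 14 in the Control_LNA_ASO libraries, and its log2 fold change of 0.80 did not pass (edgeR adjusted p = 0.0601), though it did with library totals alone (edgeR adjusted p = 0.0378).

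MBNL2 had the largest rise of the 8 genes. MBNL2, on chromosome 13 (GRCh38, 97221434 to 97394120, plus strand, ENSG00000139793), is best known as the family's main splicing regulator in brain. It had 1005 and 1051 counts in the CELF2_LNA_ASO libraries, or 36.2 and 44.0 CPM, against 472 and 414 counts in the Control_LNA_ASO libraries, or 16.9 and 17.6 CPM. Every CELF2_LNA_ASO library held more than every control library even as raw counts. MBNL2 rose 2.32-fold, by 1.22 on the log2 scale (SE 0.12, edgeR adjusted p = 0.000113). It passed under all the settings tried, with log2 fold changes of 0.98 to 1.36.

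MBNL3, on the X chromosome (GRCh38, 132369317 to 132489968, minus strand, ENSG00000076770), rose less and less firmly. MBNL3 has been described as an antagonist of muscle differentiation. It had 64.2 and 58.4 CPM in the CELF2_LNA_ASO libraries and 49.1 and 45.2 CPM in the Control_LNA_ASO libraries, with both CELF2_LNA_ASO libraries higher. MBNL3 rose by 0.38 on the log2 scale (SE 0.09, edgeR adjusted p = 0.00725). The call was lost with DESeq2 (adjusted p = 0.0555) and without Control_LNA_ASO replicate 2 (edgeR adjusted p = 0.153). With the correction for GC content and length the log2 fold change was 0.02 (edgeR adjusted p = 0.84).

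Because MBNL1 fell while MBNL2 rose, the make-up of the family differed between the groups. Per kilobase of exon, MBNL2 took 18.1% and 22.7% of the MBNL total in the CELF2_LNA_ASO libraries and 7.31% and 7.59% in the Control_LNA_ASO libraries. MBNL1 took 68.9% and 65.2% against 84.1% and 84.6%, and MBNL3 took 12.9% and 12.1% against 8.56% and 7.81%. MBNL1 remained the leading member in every library. The summed MBNL level was 40.7 and 39.5 CPM per kilobase in the CELF2_LNA_ASO libraries and 47.0 and 47.4 CPM per kilobase in the Control_LNA_ASO libraries. With the length of the longest transcript in place of all exons, the mean MBNL2 share was 15.5% in CELF2_LNA_ASO cells and 5.32% in Control_LNA_ASO cells.

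**Figure D3:**
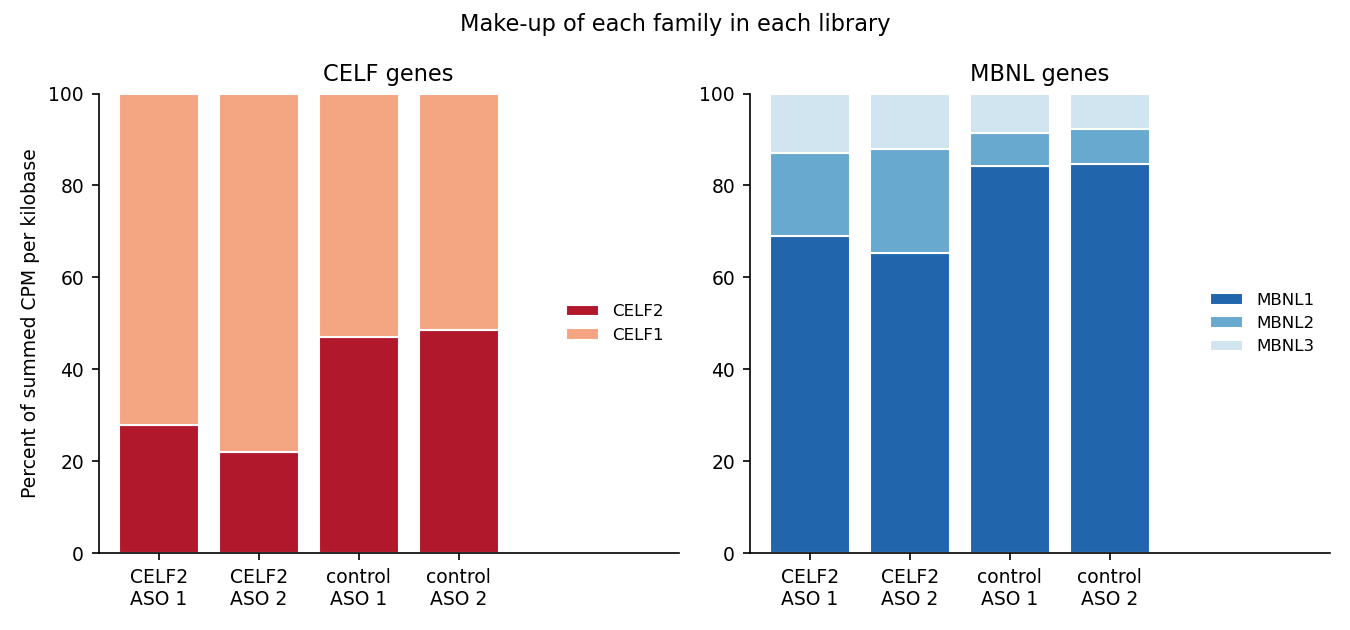
Share of each gene in the summed CPM per kilobase of union exons of its family (y axis, percent), with 1 bar for each library, the CELF2_LNA_ASO libraries first. CELF2 takes 27.9% and 22.0% of the CELF bar against 47.1% and 48.6% in the control libraries, and MBNL2 takes 18.1% and 22.7% of the MBNL bar against 7.31% and 7.59%.

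RBFOX2 and QKI belong to other families. QKI rose, while RBFOX2 did not clearly change. RBFOX2 (chromosome 22, GRCh38, 35738736 to 36028425, minus strand, ENSG00000100320) had 74.5 and 92.1 CPM in the CELF2_LNA_ASO libraries and 96.2 and 93.8 CPM in the Control_LNA_ASO libraries. The other CELF2_LNA_ASO library lay just under the control pair, while the first was well below it. The log2 fold change was -0.19, with a 95% interval of -0.44 to 0.06 (edgeR adjusted p = 0.161). It passed with no filter (edgeR adjusted p = 0.0298), with the correction for GC content and length (edgeR adjusted p = 0.0113), and without CELF2_LNA_ASO replicate 2 (edgeR adjusted p = 7.75e-09), again with only the control pair to estimate the spread. The paralog RBFOX1 had 2.60 and 1.93 CPM against 1.79 and 2.05 CPM, a log2 fold change of 0.25 that did not pass (edgeR adjusted p = 0.405), and RBFOX3 had 1 to 3 counts in any library.

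QKI (chromosome 6, GRCh38, 163414000 to 163578596, plus strand, ENSG00000112531) encodes a STAR-family protein that regulates splicing, RNA stability and circular RNA formation. It had 92.5 and 114 CPM in the CELF2_LNA_ASO libraries and 74.8 and 72.7 CPM in the Control_LNA_ASO libraries. Both CELF2_LNA_ASO libraries were above the control pair but apart from each other. QKI rose 1.40-fold, by 0.49 on the log2 scale (SE 0.11, edgeR adjusted p = 0.00594). Without CELF2_LNA_ASO replicate 2 the log2 fold change was 0.31, and with the correction for GC content and length it missed the threshold at 0.19 (edgeR adjusted p = 0.111). Other STAR-family genes fell: KHDRBS1, which encodes the signalling-linked RNA-binding protein SAM68, had 172 and 186 CPM against 334 and 330.0 CPM (log2 fold change -0.89, edgeR adjusted p = 6.31e-05). KHDRBS3 had 4.15 and 4.81 CPM against 9.90 and 9.38 CPM (log2 fold change -1.11, edgeR adjusted p = 0.000596), and KHDRBS2 was at 0 counts in all 4 libraries. Of the 12 paralogs and antisense genes listed in addition to the 8 genes, 4 were tested, 0 rose, 2 fell and 2 did not pass, against 27.5% higher and 27.9% lower over all tested genes. Their median log2 fold change was -0.32, against 0.04 over all tested genes.

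**Figure D4:**
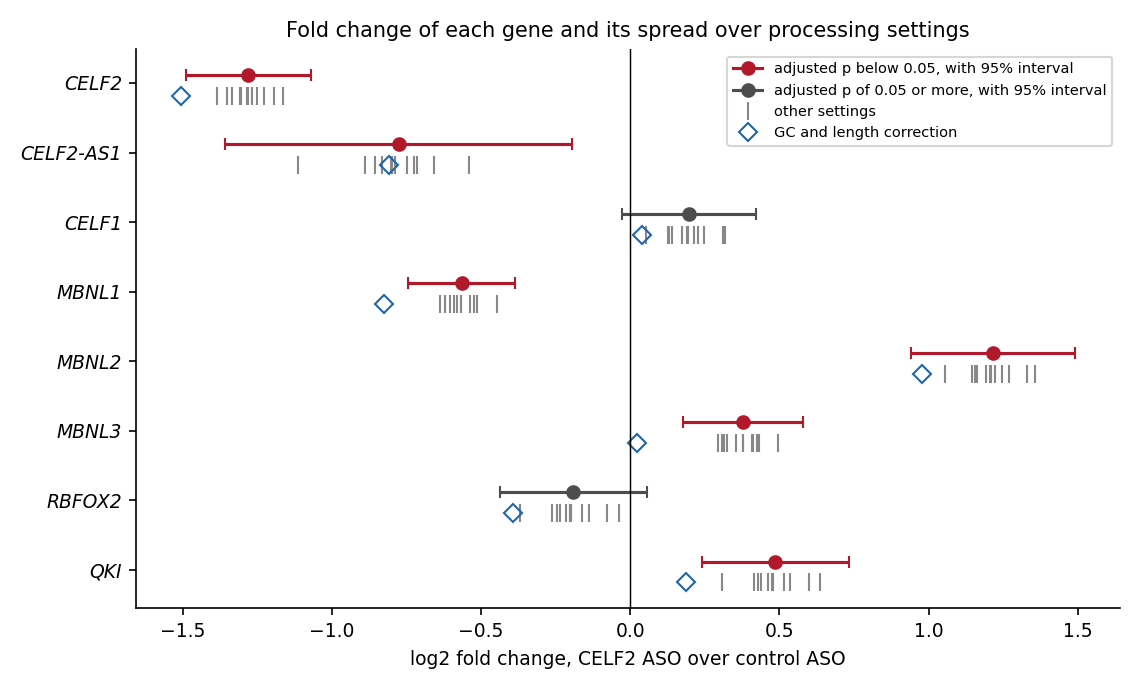
Log2 fold change of the 8 genes, CELF2_LNA_ASO over Control_LNA_ASO (x axis), with its 95% interval (red where the adjusted p was below 0.05, dark grey where it was not), and the same value under the other settings (grey ticks) and with the correction for GC content and length (blue diamonds). CELF2, MBNL1 and MBNL2 keep well away from 0, while MBNL3 moves to 0.02 and QKI to 0.19 with the correction.

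The order of levels among the 8 genes changed for CELF2 and MBNL2. Levels of different genes are set side by side here only as CPM per kilobase of exon. MBNL1 was highest in both groups, at 26.9 ± 1.64 in CELF2_LNA_ASO cells and 39.8 ± 0.393 in Control_LNA_ASO cells, and CELF1 came next, at 14.6 ± 1.73 and 12.7 ± 0.549 (SD, n = 2 each). CELF2 was at 4.80 ± 0.503 in CELF2_LNA_ASO cells, where its range overlapped those of MBNL3 (5.03 ± 0.338) and, within the SD, QKI (5.95 ± 0.876). In Control_LNA_ASO cells CELF2 was at 11.7 ± 0.0073 and ranked just under CELF1, ahead of RBFOX2 at 9.49 ± 0.170. MBNL2 was at 8.17 ± 1.12 in CELF2_LNA_ASO cells, within the spread of RBFOX2 (8.31 ± 1.24), and at 3.52 ± 0.112 in Control_LNA_ASO cells, below MBNL3 (3.86 ± 0.227) and QKI (4.25 ± 0.0875). The order depends on the length used: per kilobase of the longest transcript, MBNL2 in CELF2_LNA_ASO cells was at 8.59 ± 1.17, below RBFOX2 (12.0 ± 1.80) and QKI (10.9 ± 1.61), and CELF2 was at 6.55 ± 0.687, above MBNL3 (5.43 ± 0.365). By either length, CELF2-AS1 was lowest in both groups. Per kilobase of exon it was at 0.703 ± 0.204 and 1.21 ± 0.105.

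Other tissue-regulated splicing factors changed in both directions. Of 23 genes in this list, 18 were tested, 5 rose, 7 fell and 6 did not pass, and the median log2 fold change was -0.05 against 0.04 over all tested genes. The background was 27.5% higher and 27.9% lower, or 55.5% in all, so the list's count is near it. ESRP1, which drives epithelial splicing programmes, rose the most, with 215 and 260.0 CPM in the CELF2_LNA_ASO libraries against 19.9 and 21.4 CPM in the Control_LNA_ASO libraries (log2 fold change 3.52, edgeR adjusted p = 3.46e-06). MSI1, a translational regulator of neural progenitors, had 16.3 and 17.3 CPM against 3.18 and 3.88 CPM (log2 fold change 2.26, edgeR adjusted p = 2.21e-05). In both genes every CELF2_LNA_ASO library was severalfold above every control library.

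KHSRP and ELAVL1 were among the falls. KHSRP, a splicing and mRNA decay factor, had 301 and 294 CPM in the CELF2_LNA_ASO libraries against 689 and 727 CPM in the Control_LNA_ASO libraries (log2 fold change -1.25, edgeR adjusted p = 1.51e-05). ELAVL1, which encodes the mRNA-stabilising protein HuR, had 100.3 and 98.9 CPM against 164 and 167 CPM (log2 fold change -0.73, edgeR adjusted p = 0.000107). The rises numbered 3 with no filter and with either control library left out, and 2 with DESeq2.

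**Figure D5:**
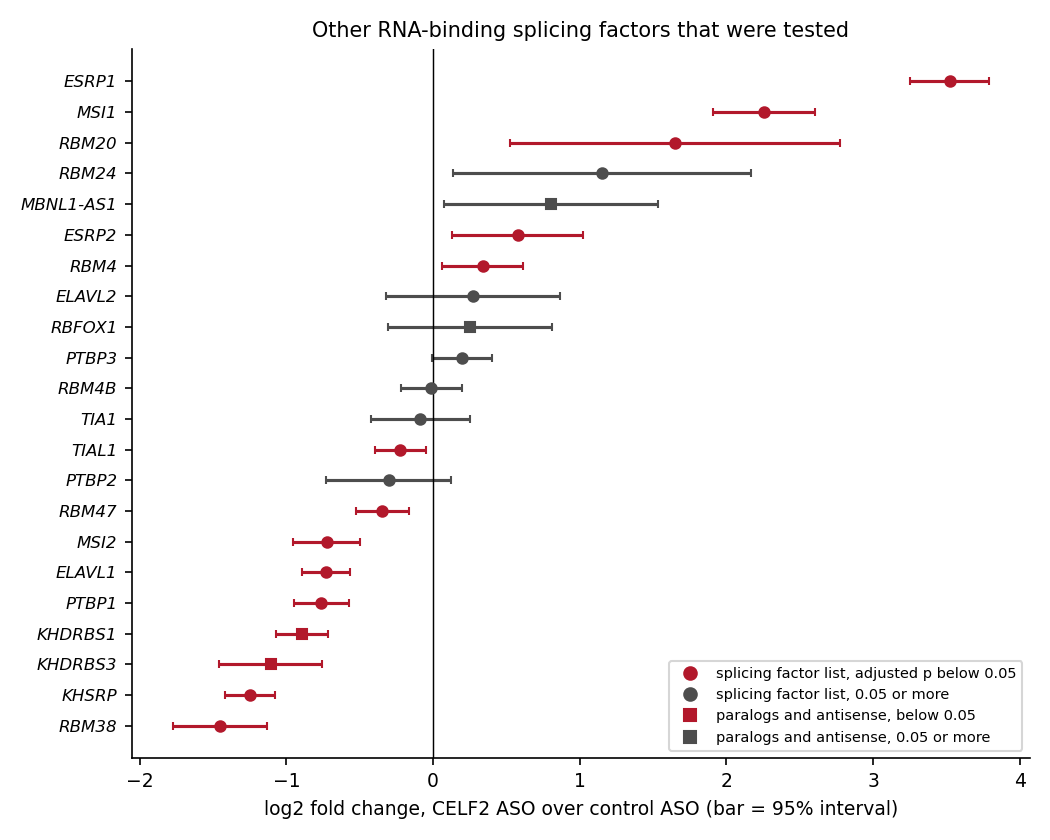
Log2 fold change, CELF2_LNA_ASO over Control_LNA_ASO, with its 95% interval (x axis) for the tested genes of the splicing factor list (circles) and of the paralogs and antisense genes (squares), red where the adjusted p was below 0.05 and dark grey where it was not. ESRP1 at 3.52 and MSI1 at 2.26 stand at the top, and KHSRP at -1.25 lies near the lower end.

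Genes with exons known to be regulated by CELF or MBNL proteins also went both ways as total RNA. Of 24 genes, 18 were tested, 5 rose, 6 fell and 7 did not pass, with a median log2 fold change of -0.23 against 0.04 over all tested genes. This count is near the 55.5% called over all tested genes (27.5% higher and 27.9% lower). Without CELF2_LNA_ASO replicate 1 the falls numbered 10. INSR, the insulin receptor gene, had 150.5 and 164 CPM in the CELF2_LNA_ASO libraries against 73.8 and 74.7 CPM in the Control_LNA_ASO libraries (log2 fold change 1.08, edgeR adjusted p = 3.05e-05). ATP2A1, a sarcoplasmic reticulum calcium pump gene, had 8.62 and 8.16 CPM against 3.39 and 2.98 CPM (log2 fold change 1.39, edgeR adjusted p = 0.000252). Every CELF2_LNA_ASO library exceeded every control library for both.

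CAPZB and MAP2K7 of the same list fell. CAPZB, which encodes an actin capping subunit, had 157 and 167 CPM against 269.8 and 274 CPM (log2 fold change -0.75, edgeR adjusted p = 0.000121). MAP2K7, a JNK pathway kinase gene with an exon that CELF2 regulates in T cells, had 38.8 and 34.1 CPM against 60.0 and 62.3 CPM (log2 fold change -0.75, edgeR adjusted p = 0.000307), and fell by 0.35 with the correction for GC content and length. The muscle genes TNNT2, TNNT3, CLCN1 and LDB3, which carry the classical CELF and MBNL exons, had 0 to 3 counts per library. Exon use itself cannot be read from these counts.

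Of 10 mRNAs reported to be bound by CELF1 or CELF2, 9 were tested, 6 rose, 2 fell and 1 did not pass, with a median log2 fold change of 0.81 against 0.04 over all tested genes, of which 27.5% rose and 27.9% fell. CEBPB, a transcription factor gene, had 39.0 and 43.0 CPM in the CELF2_LNA_ASO libraries against 7.15 and 8.05 CPM in the Control_LNA_ASO libraries (log2 fold change 2.43, edgeR adjusted p = 7.40e-06). CDKN1A, a cell cycle inhibitor gene, had 72.3 and 79.4 CPM against 25.8 and 25.6 CPM (log2 fold change 1.56, edgeR adjusted p = 1.06e-05). Both stood well clear of the control pair.

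VEGFA and TNFRSF1B, of the same list, moved apart. VEGFA, an angiogenic growth factor gene, had 113 and 115 CPM against 57.5 and 55.0 CPM (log2 fold change 1.02, edgeR adjusted p = 3.07e-05). TNFRSF1B, a receptor for tumour necrosis factor, had 35.2 and 31.6 CPM against 127 and 129.9 CPM (log2 fold change -1.94, edgeR adjusted p = 5.78e-06). The list is short and mixes mRNAs described for either protein, so nothing particular to it is read from these counts.

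The genes whose pattern over the 4 libraries was most like that of CELF2 were SLC43A3, SLC27A4, MTX1, BCL2L1 and PLXNA1. Likeness was the Euclidean distance between log2(CPM + 0.5) values centred on each gene's own mean. The search covered 8665 protein-coding genes with a symbol and a mean log2 value of at least 3. The 5 genes named lay at 0.0171 to 0.0278. SLC43A3, which encodes a nucleobase transporter, had 173 and 152 CPM in the CELF2_LNA_ASO libraries against 394 and 393 CPM in the Control_LNA_ASO libraries. For MBNL2 the nearest genes were KHNYN, ZBTB18, UBXN4, NEDD4 and GOLPH3L, at 0.0549 to 0.0716. With 4 libraries in 2 groups, such a pattern is mostly the size of the difference between the groups.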

How the data were processed

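The deposited table held unnormalized whole-number read counts per gene for 4 libraries. The submitters' processing notes name GRCh38 and, with no role, featureCounts 2.0.8 with Subread, Salmon 1.10.0, STAR 2.7.11b and bcl2fastq. How multi-mapping reads were handled, the strand setting and the annotation were not given in the sources used here. Of 79029 rows, 97 without an Ensembl gene identifier were left out, and these held 1 to 3 counts per library in total. Positions, lengths and sequences came from GENCODE 29, which holds 57356 of the 78932 Ensembl genes. The counts were therefore made on another annotation. Exon lengths and overlaps given here may differ from those of the features counted.

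Genes were kept by filterByExpr (minimum count 10, minimum total 15), scaled by TMM and compared in R 4.3.3 with edgeR 4.0.16 (robust two-sided quasi-likelihood test, no covariate, Benjamini-Hochberg adjustment over 19511 genes, threshold 0.05). Standard errors are the absolute log2 fold change over the square root of F. DESeq2 1.42.0 and limma 3.58.1 were alternatives. The fit was also run on simulated data with few genes changed and the same spread in both groups. These data differ in both respects, so that run does not give the error rate here. Replicates differed beyond sampling noise (chi-square per degree of freedom 22.5 for the CELF2_LNA_ASO pair and 3.85 for the Control_LNA_ASO pair).

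The members and gene lists were chosen with earlier results of these data known. The text names all 8 genes, all paralogs and antisense genes of the list, up to 4 called members of each other list with the smallest adjusted p, called genes within 1 Mb of CELF2 and the 5 genes nearest in pattern to CELF2 and to MBNL2. Other names were added after their values were seen.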

Additional observations from a re-analysis of the deposited data

How the results depend on the processing

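CELF2, MBNL1 and MBNL2 kept their direction and call under every alternative run, and no log2 fold change of the 8 genes changed sign. With all 4 libraries kept, these calls changed. CELF2-AS1 had a log2 fold change of -0.66 with library totals alone and -0.86 with DESeq2, and did not pass. CELF1 passed with library totals alone at 0.31. MBNL3 did not pass with DESeq2 at 0.31 or with the GC and length correction at 0.024. RBFOX2 passed with no filter at -0.25 and with that correction at -0.39, and QKI did not pass with it at 0.19. The causes of these changes were not tested. Across genes the log2 fold change had a Spearman correlation of -0.189 with GC content over 17699 genes, which are not independent.

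Leaving out 1 library at a time gave log2 fold changes of -1.11 to -0.54 for CELF2-AS1, 0.053 to 0.32 for CELF1, 0.29 to 0.43 for MBNL3 and -0.37 to -0.039 for RBFOX2. CELF2-AS1 lost its call without CELF2_LNA_ASO replicate 2 or Control_LNA_ASO replicate 1, and MBNL3 without Control_LNA_ASO replicate 2. CELF1 gained a call without CELF2_LNA_ASO replicate 1 and RBFOX2 without CELF2_LNA_ASO replicate 2. A fit without a CELF2_LNA_ASO library takes its spread from the control pair alone, and one without a control library from the CELF2_LNA_ASO pair alone. The number of splicing factors that rose was 3 to 5 and the number of genes with regulated exons that fell 4 to 10.

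Over all genes, 5372 were higher, against 3331 with DESeq2. Library totals alone put the median log2 fold change of all genes at 0.16 in place of 0.04. Rises in the splicing factor list numbered 3 with no filter and 2 with DESeq2. Rises among the paralogs and antisense genes numbered 1 with library totals alone and when restricted to genes whose GC content was known, and falls among the bound mRNAs 1 with the correction. With the longest transcript as length, the mean MBNL1 share was 74.8% in CELF2_LNA_ASO cells and 88.7% in Control_LNA_ASO cells, and the MBNL2 share 15.5% and 5.32%.

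With the label's number as a replicate block, CELF2 had a log2 fold change of -1.28, 10809 genes were called in place of 10823, and no call among the 8 genes changed. Same-numbered libraries deviated together with a correlation of 0.09 over 9301 genes. The main fit had no block because the labels do not say what the number marks.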

Other observations

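The CELF2_LNA_ASO libraries also differed between themselves. The absolute log2 gap between CELF2_LNA_ASO replicates 1 and 2 was 0.46 for CELF2-AS1, which had few counts, 0.30 for RBFOX2, 0.30 for QKI, 0.28 for MBNL2, 0.24 for CELF1 and 0.21 for CELF2. It was 0.14 for MBNL3 and 0.12 for MBNL1, against a median of 0.17 over all tested genes. In the control pair the gaps were 0.15 for CELF2-AS1, 0.12 for MBNL3 and 0.00 to 0.09 for the other 6 genes, against a median of 0.10. RBFOX2, QKI, MBNL2 and CELF1 were higher in CELF2_LNA_ASO replicate 2, while CELF2, CELF2-AS1, MBNL1 and MBNL3 were higher in CELF2_LNA_ASO replicate 1.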
